A study of Rattus norvegicus with 14 samples.

Results

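The resting miRNA repertoire of control rat islets is the set of microRNAs (miRNAs) that the array called present in every control islet preparation. A miRNA was a member when its detection flag read present on all 4 control arrays. Of the 350 rat miRNAs on the array, 163 (46.6%) met this rule, 163 were present on none of the 4 arrays, and 24 were present on 1 to 3 of them.

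The arrays came from a study of miRNAs in the growth of the beta-cell mass in pregnancy and obesity. Each of the 4 control arrays held total RNA from pancreatic islets of control female rats, labelled with cyanine 3 and hybridised alone in 1 colour. The labels give neither strain nor age nor the number of rats behind an array, and call the 4 arrays biological replicates. The other 10 of the 14 samples, from islets on day 14 of gestation and from the INS832/13 beta-cell line with miR-338-3p blocked or as a control, were not used.

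The summed signal over the 350 miRNAs was 222834 on control replicate 1, 148467 on replicate 2, 181041 on replicate 3 and 197118 on replicate 4, and the number of miRNAs called present was 182, 170, 171 and 172. Pairs of arrays correlated across the 163 members at Pearson's r of 0.975 to 0.993 on log2 signals and Spearman's rho of 0.972 to 0.992, with the probes and the slide in common. By the array names all 4 shared 1 slide, and replicate 2 was the only control array whose name has 1 as its first position digit, where the others have 2. No label explains the digits, so replicate 2 and that position cannot be told apart.

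A miRNA is cut from a hairpin precursor, and the strand loaded into an Argonaute protein pairs with target messenger RNAs mainly through its seed, the bases near its 5′ end. MiRNAs with the same seed form a family with overlapping targets, and of the 2 arms of a hairpin usually the 5p or the 3p strand builds up while the other is degraded. Islets hold insulin-secreting beta cells, other endocrine cells, endothelium, stroma and blood cells, and miR-375 and miR-7a are the miRNAs best known for their enrichment in islet endocrine cells.

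The mature sequences of the leading members are shown first, because the families below are defined by them. They are RefSeq sequences of build GRCr8, written 5′ to 3′, with the seed (bases 2 to 8) in capitals. Of the 163 members, 132 matched a sequence in this table, and these carried 92.5% ± 0.176 of the signal (SD, n = 4). The first set holds the islet markers miR-7a and miR-375 with miR-7b, which shares the seed of miR-7a.
miR-7a: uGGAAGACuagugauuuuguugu
miR-7b: uGGAAGACuugugauuuuguugu
miR-375: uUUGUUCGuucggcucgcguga

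The second set is the let-7 family, which had more members and more signal than any other seed.
let-7a: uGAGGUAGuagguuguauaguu
let-7b: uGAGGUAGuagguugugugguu
let-7c: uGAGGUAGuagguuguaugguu
let-7d: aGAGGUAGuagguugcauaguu
let-7e: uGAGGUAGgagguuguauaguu
let-7f: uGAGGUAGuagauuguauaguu
let-7i: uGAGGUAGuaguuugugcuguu
miR-98: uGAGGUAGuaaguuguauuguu

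The third set holds the other members among the 20 of highest share, with relatives of the same seed beside each other.
miR-29b: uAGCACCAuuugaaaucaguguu
miR-29a: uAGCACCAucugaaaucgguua
miR-29c: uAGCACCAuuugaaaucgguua
miR-200c: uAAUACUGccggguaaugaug
miR-141: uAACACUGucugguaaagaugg
miR-23b: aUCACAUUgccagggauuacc
miR-27b: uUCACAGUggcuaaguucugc
miR-26a: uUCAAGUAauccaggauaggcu
miR-26b: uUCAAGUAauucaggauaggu
miR-24: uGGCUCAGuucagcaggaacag
miR-22: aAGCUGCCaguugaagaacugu
miR-21: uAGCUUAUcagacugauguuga

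Levels are given as the share of an array's summed signal, that is the unscaled signal of a miRNA over the sum of all 350 miRNAs on the same array, in percent. Array signal is not a molar amount and probes differ in brightness, so all ranks, shares and ratios between miRNAs below are of signal. In bulk islets fewer cells of a type and less RNA per cell cannot be told apart.

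MiR-7a, an islet miRNA that in mouse beta cells represses members of the mTOR pathway, was the brightest miRNA on every array. Its share was 10.4% on control replicate 1, 9.52% on replicate 2, 11.3% on replicate 3 and 10.3% on replicate 4, a mean of 10.4% ± 0.731 (SD, n = 4). RefSeq places its 5p strand at 2 loci, chr1:142215818-142215840 and chr17:6278710-6278732, both on the plus strand. MiR-375, which restrains insulin secretion and sustains the endocrine mass in mice, stood at 5.03%, 4.47%, 5.91% and 4.92%, a mean of 5.08% ± 0.602 (SD, n = 4). It maps to chr9:83906591-83906612 on the minus strand. Both markers were highest on replicate 3 and lowest on replicate 2. The ratio of miR-7a to miR-375 signal was 2.05 ± 0.0943 (SD, n = 4), so they moved together across the arrays. Their presence in the 6 highest ranks of every array matches the labelled tissue.

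**Figure D1:**
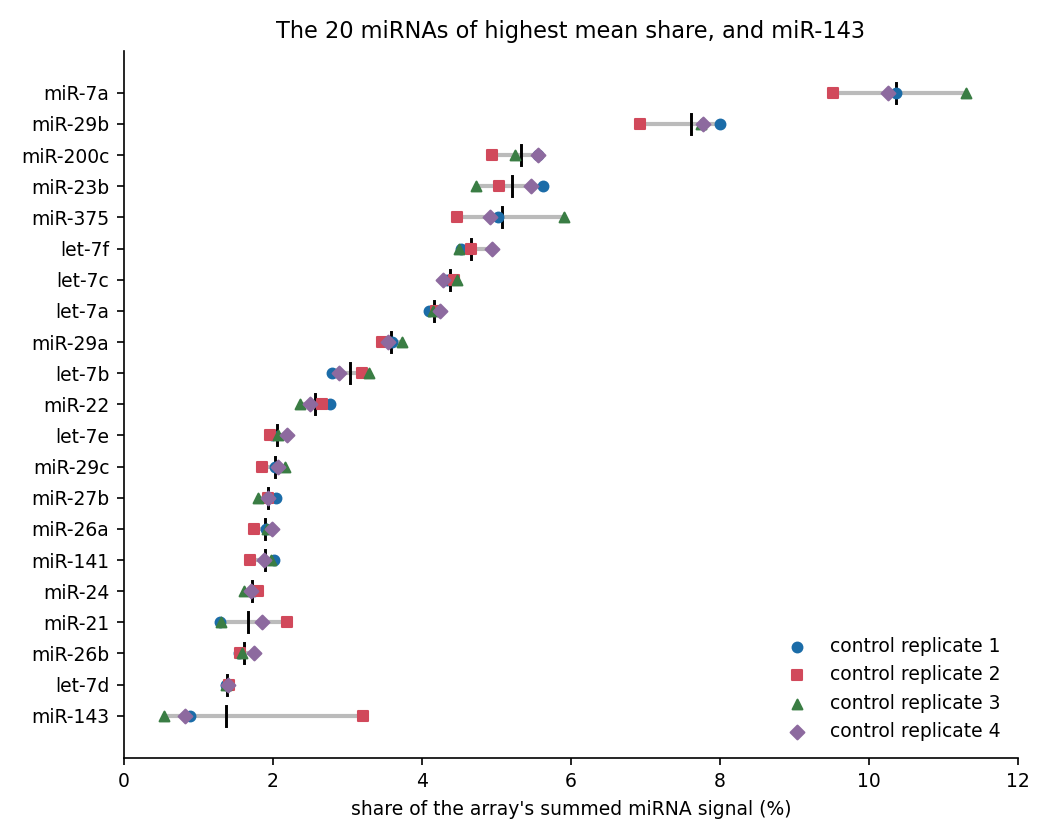
Share of each array's summed miRNA signal (%, horizontal axis) for the 20 miRNAs of highest mean share and miR-143, the next in order. Each point is 1 control array, the black tick the mean of 4 arrays and the grey line the range. MiR-7a lies between 9.52% and 11.3%, and miR-143 reaches 3.21% on replicate 2 while the other 3 arrays stay between 0.534% and 0.889%.

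The signal was concentrated in few miRNAs. The brightest miRNA, the 5, the 10, the 20 and the 50 brightest of each array held on average 10.4%, 33.7%, 53.4%, 72.6% and 90.8% of its signal. Between 9 and 10 miRNAs made up 50% of an array's signal, between 47 and 50 made up 90%, and between 125 and 134 made up 99%. Replicate 2 was the least concentrated, with 50.8% in its 10 brightest against 53.9% to 55.1% on the other arrays. The other end was long: 24 members had a mean share over 1% and 81 had one over 0.1%, while the 82 below 0.1% held 3.56% together. The median member had a share of 0.0995%, and the highest and lowest mean shares were 1532-fold apart. The 187 miRNAs outside the repertoire held 0.312%, 0.536%, 0.314% and 0.287% of the signal on replicates 1 to 4.

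The brightest miRNAs were largely the same on each array, and 5 of the 20 leading members kept 1 rank on all 4. The same 9 miRNAs filled the 9 highest ranks of each array, and 18 miRNAs stood in the 20 highest of each. Among the 20 leading members, 9 of 20 neighbours in the order of mean share did not overlap, meaning that the lowest array of the higher miRNA lay above the highest array of the next. MiR-7a was set apart in this way from miR-29b, which held 8.01%, 6.93%, 7.74% and 7.77% on replicates 1 to 4, a mean of 7.61% ± 0.472 (SD, n = 4). MiR-29b, a miRNA that in beta cells represses the lactate transporter Slc16a1, lay in turn above miR-200c on all 4 arrays.

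Ranks 3 to 6 formed a group that the spread does not order. MiR-200c, which represses the Zeb transcription factors of epithelial cells, held 5.33% ± 0.298. MiR-23b, encoded next to miR-27b and miR-24, held 5.21% ± 0.407, miR-375 followed, and let-7f held 4.66% ± 0.202 (SD, n = 4 each). Each neighbour in this group overlapped the next, and miR-200c exceeded miR-23b on 2 of 4 arrays. From let-7f downward the neighbours let-7c (4.38% ± 0.0874), let-7a (4.17% ± 0.0643), miR-29a (3.59% ± 0.118), let-7b (3.04% ± 0.238), miR-22 (2.57% ± 0.179) and let-7e (2.05% ± 0.106) did not overlap (SD, n = 4 each). The let-7f and let-7c ranges were separated only by 4.50% against 4.47%.

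Between let-7e and miR-26b the ranges of all neighbours overlapped. The mean share was 2.03% ± 0.127 for miR-29c, 1.93% ± 0.0974 for miR-27b, 1.89% ± 0.102 for miR-26a, 1.89% ± 0.145 for miR-141, 1.72% ± 0.0838 for miR-24 and 1.61% ± 0.0956 for miR-26b (SD, n = 4 each). MiR-21, a miRNA raised by inflammation and abundant in fibroblasts and leukocytes, was less even, at 1.29%, 2.19%, 1.301% and 1.86% on replicates 1 to 4. Its rank ran from 13 on replicate 2 to 21 on replicates 1 and 3. Let-7d closed the 20 at 1.39% ± 0.0203, and miR-143 followed at 1.36% ± 1.24 (SD, n = 4 each), a mean that rests on replicate 2.

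Grouped by seed, the 132 matched members fell into 101 families. Of these, 18 had at least 2 members, together 49 members with 64.9% ± 1.23 of the signal, and the 10 highest families held 72.6% ± 2.08 (SD, n = 4 each). The let-7 family, which represses growth and metabolic genes and is held down by Lin28 in the embryo, held 20.8%, 21.5%, 21.6% and 21.7% on replicates 1 to 4. Its signal was divided: let-7f, the leading member, made up 21.8% ± 0.809 of it, and 6 of its 8 members were among the 20 highest miRNAs. Let-7i held 1.33% ± 0.0260 and miR-98, encoded beside a copy of let-7f on the X chromosome, 0.375% ± 0.0123 (SD, n = 4 each). Of the 28 pairs within this family, 11 differ at 2 or fewer positions, for example let-7a and let-7f at 1, and binding of such relatives to each other's probes was not tested.

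The miR-29 family held 13.6%, 12.2%, 13.6% and 13.4%, of which miR-29b made up 57.5% ± 1.03. The miR-7 family, at 11.0%, 10.1%, 12.03% and 10.8%, was nearly all miR-7a (94.5% ± 0.371), although miR-7a and miR-7b differ at only 1 position. MiR-23b made up 84.0% ± 1.55 of the miR-23 family, miR-27b 79.3% ± 1.37 of the miR-27 family and miR-26a 54.0% ± 1.15 of the miR-26 family (SD, n = 4 each). These families thus ranged from an even division to a single leader, and the division repeated on each array within a few percentage points. Across all families, 23 of 63 pairs of members with the same seed differ at 2 or fewer positions.

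**Figure D2:**
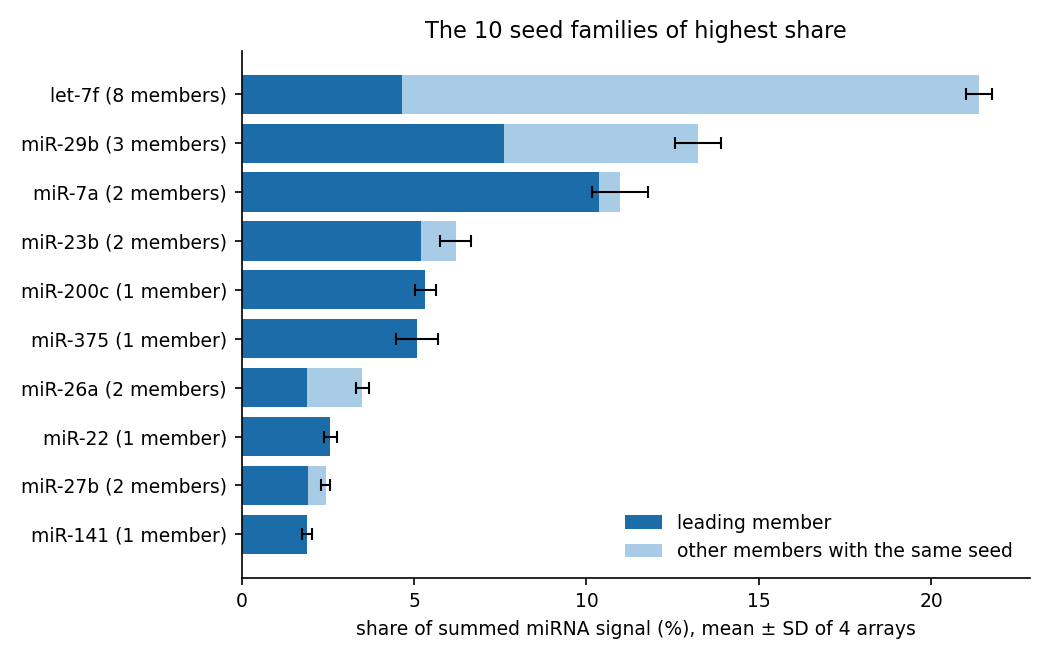
Mean share of summed miRNA signal (%, horizontal axis) of the 10 seed families of highest share, named by their leading member, with the SD of the family sum over 4 control arrays. Dark bars are the leading member and light bars the other members with the same seed: let-7f is 21.8% of its family and miR-7a 94.5% of its own.

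Members with no matched sequence are missing from this grouping. Adding them by family name, a step chosen after the values were seen, brought miR-200b and miR-429 to the family of miR-200c, whose share became 6.51% ± 0.241 against 5.33% ± 0.298 without them. MiR-200a brought the family of miR-141 to 2.80% ± 0.115. MiR-30b-5p and miR-30d, named here after their values were seen, brought the miR-30 family to 2.72% ± 0.0728 against 1.68% ± 0.0398 without them (SD, n = 4 each). So completed, the miR-200c family stood above the miR-23 family (6.21%) and the miR-30 family above miR-22 (2.57%), and the let-7, miR-29 and miR-7 families kept the first 3 places.

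The arms of a hairpin were compared where both had a row on the array. At least 1 arm was a member for 65 such pairs, and in 14 of them both arms were. In 51 pairs 1 arm was a member, and in 42 of these the other arm was present on no array. For an arm not called present only a bound can be given, taken against the lowest signal called present on the same array or the arm's own signal, whichever is higher. The bounds below are means of the log2 bounds over the 4 arrays, so single arrays can lie below them. By this mean bound 47 of the 51 pairs were at least 10-fold apart. It was 3242-fold for miR-29b over the asterisk strand of each of its 2 hairpins. For let-7e it was 875-fold, for miR-22 749-fold, for miR-24 731-fold and for miR-21 690-fold. MiR-29b and miR-24 map to 2 loci each, so their bounds are not within 1 hairpin. The log2 bound of miR-29b was 10.3 on replicate 2, against a mean of 11.7. The lowest signal called present was 4.09, 8.14, 1.79 and 5.99 on replicates 1 to 4, below the brightest negative control feature of each array.

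Among the 14 pairs with both arms present on all arrays, 6 were over 10-fold apart and 3 under 2-fold. MiR-7a was the extreme: its log2 signal exceeded that of miR-7a*, the other strand of the hairpin on chromosome 17, by 9.53 ± 0.163 (SD, n = 4). Let-7d exceeded let-7d* by 7.57 ± 0.229 and the endothelial miR-126 exceeded miR-126* by 5.29 ± 0.155 (SD, n = 4 each). MiR-7a* lay below the brightest negative control feature on replicates 1, 2 and 4, and let-7d* on all 4 arrays. The ratios of miR-7a and let-7d therefore rest on values near the background. MiR-7a also maps to 2 loci and miR-7a* to 1, so that ratio is not within 1 hairpin. The direction was the same on all 4 arrays in each of the 14 pairs, and the SD of the log2 ratio had a median of 0.16 over the pairs. The ratio of miR-125a-5p to miR-125a-3p varied most, with an SD of 0.77, and miR-125a-3p lay below the brightest negative control feature on replicates 1 and 4.

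MiR-129, a brain and neuroendocrine miRNA, was the case in which the asterisk strand was brighter with both arms present. Its share was 0.193%, 0.178%, 0.196% and 0.173% on replicates 1 to 4, and that of miR-129* was 0.323%, 0.402%, 0.353% and 0.328%. The log2 ratio of miR-129 to miR-129* was -0.75, -1.17, -0.85 and -0.92, below 0 on every array. MiR-129 maps to 2 loci and miR-129* had no matched sequence, so this ratio may not be within 1 hairpin. MiR-324-5p exceeded miR-324-3p by 1.23, 0.80, 0.71 and 1.00, and miR-340-5p exceeded miR-340-3p by 1.10, 0.74, 1.11 and 0.88 on the log2 scale. These 3 pairs are the ones within 2-fold on average. MiR-296* was also the brighter strand, by a mean bound of 16.0-fold over miR-296, which was present on no array.

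**Figure D3:**
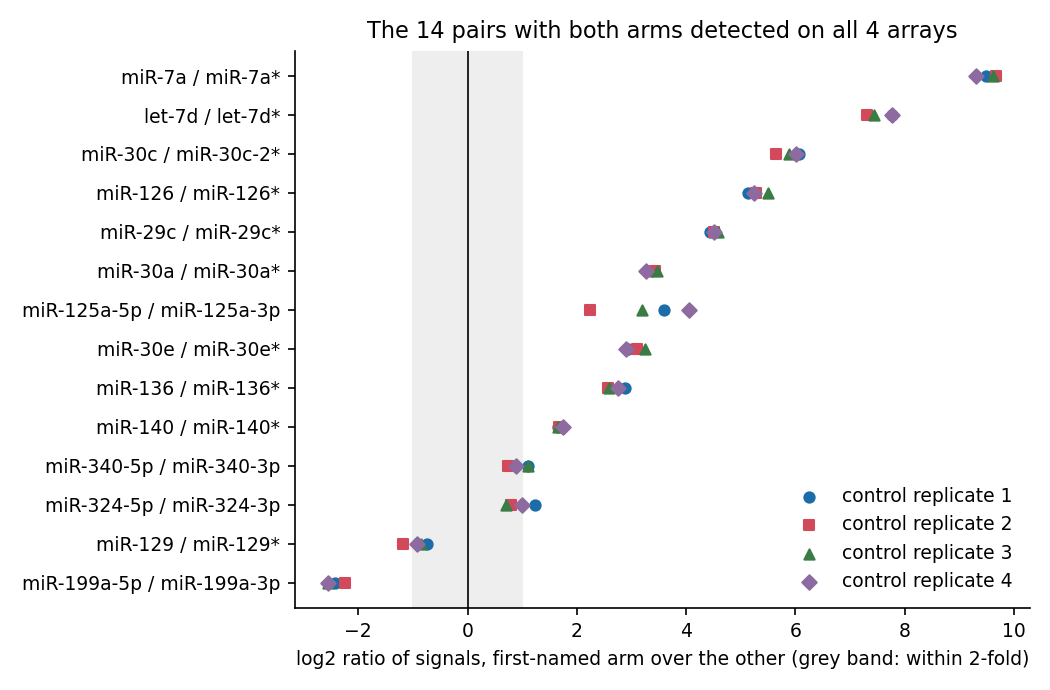
Log2 ratio of signals between the arms of a hairpin (horizontal axis) for the 14 pairs with both arms present on all 4 control arrays, the first-named arm over the other, with a point for each array. The grey band marks ratios within 2-fold. MiR-7a over miR-7a* averages 9.53, and miR-129 over miR-129* lies between -1.17 and -0.75.

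In all, 11 members carried an asterisk name, and they held 0.7498% ± 0.0358 of the signal (SD, n = 4). Where the names give the arm as 5p and 3p, the 3p arm was the brighter in 9 of 20 pairs. One of these was miR-199a-3p of the stromal list, which exceeded miR-199a-5p 5.44-fold. MiR-199a-5p lay below the brightest negative control feature on replicates 1 and 4. The 4 pairs short of a 10-fold bound were miR-376b-5p, miR-139-3p, miR-409-5p and miR-382 with their other arms. The last pair of names is given here after the values were seen.

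Members from neighbouring hairpins differed in signal. RefSeq hairpins on the same strand within 10 kb formed 19 neighbourhoods with at least 2 members, in which the brightest exceeded the dimmest 1.302-fold to 645-fold. The 645-fold set let-7f against let-7d*, an asterisk strand, so it mixes hairpins with arms. So do 102-fold for let-7e with miR-125a-3p and 85.5-fold for miR-29b with miR-29c*. Where no hairpin gave both arms, the widest was 153-fold, for let-7a, which has 2 loci, over miR-100, named after its value was seen. MiR-96, miR-183 and miR-182 share the stretch chr4:59752246-59756153 on the minus strand and are known together from sensory and neuroendocrine cells.
miR-96: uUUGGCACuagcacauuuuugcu
miR-183: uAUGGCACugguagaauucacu
miR-182: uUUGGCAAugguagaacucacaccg
MiR-96 held 0.869%, 0.691%, 0.728% and 0.801% on replicates 1 to 4 and miR-183 held 0.453%, 0.394%, 0.377% and 0.417%. MiR-182 held 0.0116%, 0.00697%, 0.00738% and 0.00754%. MiR-182 was thus among the 5 lowest members, and miR-96 was 94.7-fold ± 13.7 brighter (SD, n = 4). The signals of miR-182 were 25.9, 10.3, 13.4 and 14.9, below the brightest negative control feature of each array. The ratio therefore rests on values near the background. Different brightness of the probes was not tested as a part of it.

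MiR-200c and miR-141, at chr4:159209525-159210033 on the minus strand, differed 2.83-fold ± 0.139. MiR-23b differed from miR-27b 2.70-fold ± 0.106. MiR-451 and miR-144, the red cell pair at chr10:63459397-63459640, differed 12.5-fold ± 1.76 (SD, n = 4 each). The signals of miR-144 were 23.9, 16.0, 56.5 and 40.2, below the brightest negative control feature on replicates 1, 2 and 4. The ratio of this pair therefore rests in part on values near the background. MiR-143 was abundant, whereas miR-145, known to be made from the same transcript, was called present on replicate 2 only, at a signal of 15.3. The log2 ratio of miR-96 to miR-183 and of miR-200c to miR-141 varied by an SD of 0.067 and 0.071 over the arrays. The single members had SDs of 0.12 for miR-96, 0.094 for miR-183, 0.078 for miR-200c and 0.084 for miR-141.

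At the low end, the 5 members of lowest mean share were miR-376b-5p (0.00871%), miR-182 (0.00837%), let-7d* (0.00739%), miR-874 (0.00701%) and miR-539 (0.00677%). The signals of miR-539 were 19.4, 8.14, 7.38 and 17.3 on replicates 1 to 4, and those of let-7d* were 14.0, 13.1, 14.4 and 12.7. Just outside the rule, miR-218 of the stromal list was present on 3 of 4 arrays with signals of 44.7, 32.8, 20.5 and 34.5. MiR-299, miR-221 and miR-532-5p, given here after their values were seen, were also present on 3 arrays, and miR-299 had signals of 34.9, 17.0, 22.8 and 29.9. The flag was not a cutoff on signal alone. The highest signal not called present was 15.3, 27.2, 20.5 and 18.2 on replicates 1 to 4. The lowest called present on the same arrays was 4.09, 8.14, 1.79 and 5.99. By mean signal over the arrays, 17 miRNAs outside the repertoire lay above its dimmest member.

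The brightest negative control feature of an array read 41.5, 42.4, 20.1 and 45.9 on replicates 1 to 4. Of the 163 members, 131 lay above it on all 4 arrays and 32 did not on at least 1. Levels of these 32 are near the array's background. No miRNA outside the repertoire lay above it on all 4 arrays, and 6 did on at least 1.

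To compare arrays, signals were brought to a common 75th percentile over the members, with factors of 0.7998, 1.299, 1.03 and 0.987 for replicates 1 to 4. The SD of the scaled log2 signal over the 4 arrays had a median of 0.17 over the members, and the median range from the lowest to the highest array was 1.29-fold. Bright members varied less: the median SD was 0.093 among the 20 highest, 0.12 in the upper 82 members and 0.22 in the lower 81. In 56 members the range was under 1.2-fold, in 18 it was over 2-fold and in 3 over 4-fold.

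The steadiest member was miR-185, with scaled signals of 148, 145, 148 and 145 and an SD of 0.016. It was followed by miR-322 (0.025), the rodent counterpart of human miR-424, miR-361 (0.042), miR-126 (0.049), let-7i (0.049), miR-98 (0.051), miR-429 (0.054), miR-129 (0.055), miR-107 (0.055) and miR-29a (0.055). Let-7i and miR-98 carry the let-7 seed and miR-29a that of the miR-29 family. MiR-29a, at 6425 to 7006 scaled units, was the brightest of the 10.

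MiR-874 had the largest SD, 1.37, with scaled signals of 3.27, 27.1, 16.7 and 6.31 on replicates 1 to 4, near the background. MiR-143, a miRNA of smooth muscle and fibroblasts, came next with an SD of 1.14. Its scaled signal was 1584, 6189.7, 1000.45 and 1607, so replicate 2 alone lay high. MiR-188 (SD 1.04) read 31.2, 151, 94.1 and 134 and was low on replicate 1. Without replicate 2 the SD of miR-143 was 0.39, and without replicate 1 that of miR-188 was 0.35. Leaving out the array furthest from the mean cannot raise an SD.

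The next 7 were miR-327 (SD 0.86), miR-144 (0.77), miR-125a-3p (0.73), miR-466b (0.72), miR-139-3p (0.70), miR-378 (0.70) and miR-216a (0.66). On replicates 1 and 4, miR-125a-3p, miR-466b and miR-139-3p lay below the brightest negative control feature. MiR-144 did so on replicates 1, 2 and 4, miR-378 on replicate 4 and miR-188 on replicate 1. Their spread therefore includes values near the background. Among the 10 of largest SD, 8 were matched, and 4 of these were at least 60% G and C. The sequences of these 4 are printed for that reason.
miR-874: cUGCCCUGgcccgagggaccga
miR-188: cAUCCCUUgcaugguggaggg
miR-327: cCUUGAGGggcaugagggu
miR-139-3p: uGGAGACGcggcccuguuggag
Over the 132 matched members the median G and C content was 45.5%, and the 13 with at least 60% had a median SD of 0.30 against 0.16 for the rest. The deviation of a member from its mean correlated with its G and C content at a Pearson's r of -0.25, 0.32, 0.090 and -0.36 on replicates 1 to 4, across miRNAs that share an array. Spearman's rho was -0.038, 0.23, 0.085 and -0.39. Between G and C content and the SD itself r was 0.27 and rho 0.087, so the relation was weak on ranks. Its part in the spread was not tested.

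**Figure D4:**
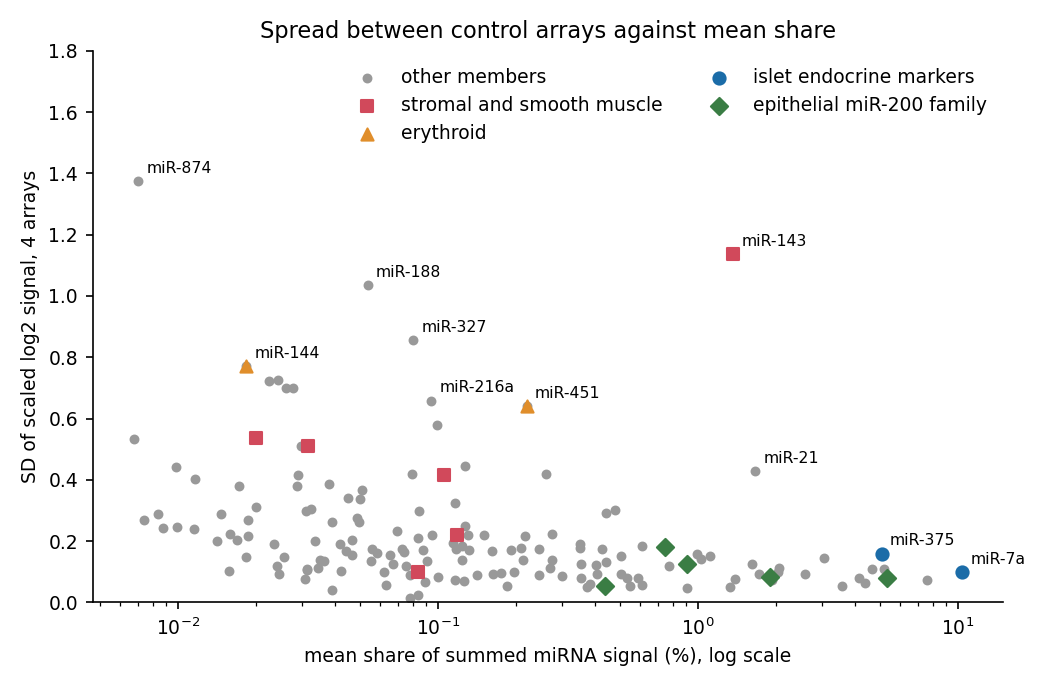
SD of the scaled log2 signal over 4 control arrays (vertical axis) against the mean share of summed signal (%, log axis) for the 163 members. Squares are stromal, triangles erythroid, circles islet and diamonds miR-200 family miRNAs. MiR-143 is at 1.14, miR-375 at 0.16 and miR-7a at 0.098.

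Of the 18 members with a range over 2-fold, 15 were highest on replicate 2, and 15 were in the lower 81 by share. Without replicate 2, 7 members had a range over 2-fold, a count that leaving out an array cannot raise. Over all 163 members replicate 2 was the highest array for 63 and the lowest for 49. Among the 18 were miR-143, miR-199a-5p and miR-214 of the stromal list, miR-216a of acinar cells, miR-142-3p of leukocytes, and miR-144 and miR-451 of red cells.

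The lists of known cell type miRNAs describe what the islet preparations held, and each sum runs over all miRNAs of a list on the array, those outside the repertoire included. The beta-cell and neuroendocrine list had 13 of its 19 miRNAs among the members (68.4%, against 46.6% of all miRNAs on the array) and summed to 18.4%, 16.7%, 20.2% and 18.0% on replicates 1 to 4. Beside miR-7a, miR-375, miR-96 and miR-183 these were miR-7b (0.606% ± 0.0829), miR-129*, miR-153 (0.275% ± 0.0391), miR-129, miR-335 of the Mest gene (0.1299% ± 0.0222), miR-338 of the Aatk gene (0.116% ± 0.0242), miR-132 (0.0200% ± 0.00437), miR-7a* and miR-182 (SD, n = 4 each). MiR-9, miR-9*, miR-124, miR-184, miR-212 and miR-338* were present on no array. MiR-9 and miR-124 are the defining miRNAs of neurons. Of the 6 miRNAs of the list named neuronal that are on the array, miR-128, miR-137 and miR-219-5p were members. The 6 summed to 0.0935% to 0.120%.

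All 5 miRNAs of the epithelial miR-200 family were members and summed to 9.54%, 8.86%, 9.33% and 9.52%. Both endothelial miRNAs, miR-126 (0.906% ± 0.0351) and miR-126*, were members, at 0.980%, 0.914%, 0.890% and 0.933% together. These lists differed by at most 1.10-fold between arrays.

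Markers of exocrine, liver and muscle tissue were low. Of the acinar miRNAs, miR-216a was a member, at 0.0628%, 0.162%, 0.0861% and 0.0655%, while miR-217 was present on no array. MiR-192 (0.127% ± 0.0193) and miR-194 (0.0323% ± 0.00644) of endodermal epithelia were members, and miR-122, the defining miRNA of hepatocytes, was present on no array. MiR-215, of the same endodermal list, was present on replicates 2 and 3, at signals of 46.4 and 54.7. No striated muscle miRNA was a member. MiR-133b was present on 2 arrays and read 14.8, 111, 2.24 and 13.8, and miR-1 was present on replicate 2 only, at 65.0. No placental or embryonic miRNA on the array was present on any control array, and the 5 on the array summed to at most 0.0132%.

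The stromal and smooth muscle list varied most among the lists with members. Of its 8 miRNAs on the array 6 were members, and it summed to 1.27%, 3.68%, 0.842% and 1.18% on replicates 1 to 4. Replicate 2 lay above the other arrays, and most of the sum was miR-143.
miR-143: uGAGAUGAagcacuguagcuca
On the scaled signal, replicate 2 was the highest array for 5 of the 6 members and replicate 3 the lowest for 5, where all 163 members gave 38.7% and 23.9%. MiR-199a-3p held 0.0968%, 0.145%, 0.0755% and 0.106%, and miR-214 held 0.0260%, 0.0484%, 0.0226% and 0.0290%. MiR-10b (0.118% ± 0.0178) and miR-152 (0.0834% ± 0.00821) varied less (SD, n = 4 each). On replicate 2 the stromal sum was thus highest together with the acinar and striated muscle sums (0.163% and 0.121%), while miR-7a and miR-375 were lowest, and the part of other cells in this was not tested.

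The red cell pair went another way. MiR-451, a miRNA matured by Argonaute 2 without Dicer, held 0.136%, 0.160%, 0.361% and 0.221%, and miR-144 held 0.0107%, 0.0108%, 0.0312% and 0.0204% on replicates 1 to 4. Both were highest on replicate 3, the only array on which miR-144 lay above the brightest negative control feature. Of the 8 leukocyte miRNAs on the array 6 were members, and the 8 summed to 0.508%, 0.588%, 0.473% and 0.461%. MiR-142-3p, made in all blood cell lineages, held 0.1002%, 0.188%, 0.112% and 0.107%, again highest on replicate 2. MiR-342-3p (0.163% ± 0.00994), the NF-kB-induced miR-146a (0.118% ± 0.0169), the myeloid miR-223 (0.0444% ± 0.00637), the lymphocyte miR-150 (0.0287% ± 0.00759) and miR-146b (0.0245% ± 0.00162) made up the rest (SD, n = 4 each).

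**Figure D5:**
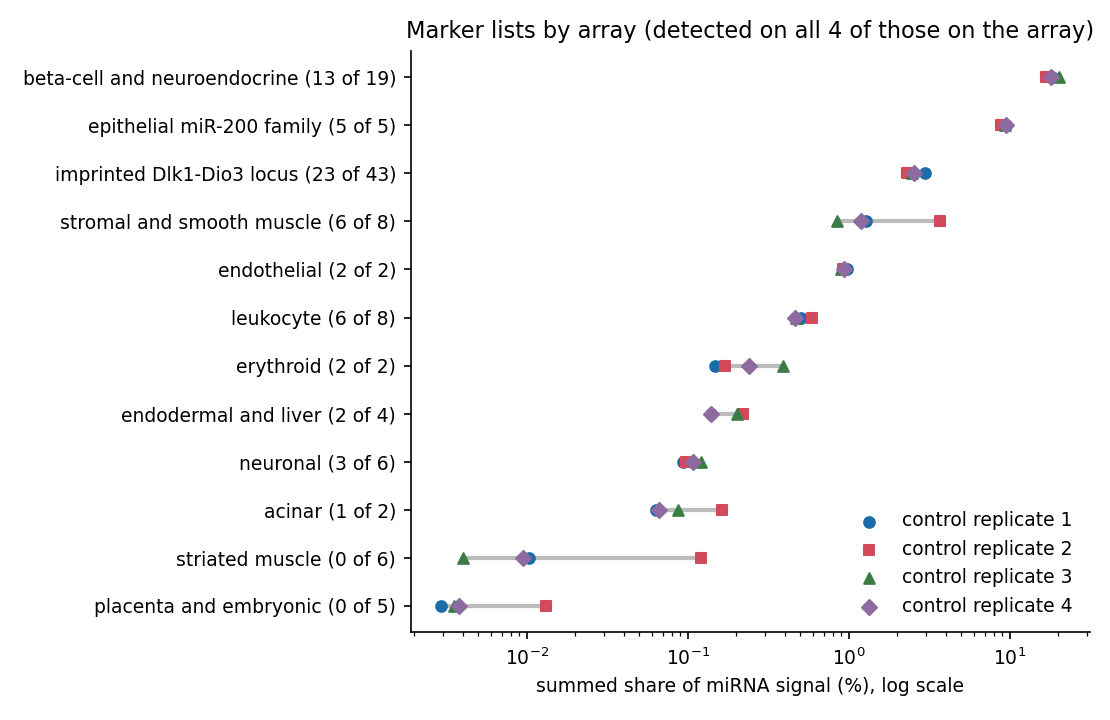
Summed share of miRNA signal (%, log axis) of each list of cell type miRNAs, with a point for each control array and, in brackets, how many of the miRNAs on the array were members. The stromal list reaches 3.68% on replicate 2 and 0.842% on replicate 3, and the miR-200 family stays between 8.86% and 9.54%.

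The imprinted Dlk1-Dio3 locus on chromosome 6 encodes one of the largest groups of mammalian miRNAs, expressed from the maternal chromosome. Of the 43 miRNAs assigned to it on the array, 23 were members (53.5%, against 46.6% of all), and they summed with the others to 2.95%, 2.31%, 2.46% and 2.53% on replicates 1 to 4. The list was written by hand and is not complete. It leaves out the member miR-341 (0.0419% ± 0.00751, SD, n = 4), which RefSeq places at chr6:134347871-134347891, between miR-136* and miR-379. Named after their values were seen, the brightest were miR-136 (0.477% ± 0.106), miR-494 (0.444% ± 0.0909), miR-127 (0.427% ± 0.0682) and miR-434 (0.274% ± 0.0309, SD, n = 4 each). On the scaled signal replicate 1 was the highest array for 19 of the 23 and replicate 2 the lowest for 20, where all 163 members gave 26 and 49. On the scaled signal miR-494 was highest on replicate 2, where its share was 0.578%, and miR-136*, miR-434 and miR-539 were highest on replicate 4.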

How the data were processed

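The 4 control arrays are 1-colour miRNA arrays. The deposited table gives, per the file headers, an unnormalized signal intensity per miRNA on a linear scale, log2 values normalized by the authors, and a detection flag. The values show that signals below 1 were set to 1. The sources used here give neither the flag rule nor the feature extraction software and its settings. Rows of 22 control features were left out.

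Shares were computed from the unscaled intensity. Spread was computed on log2 signals scaled to the 75th percentile over the members. The number of arrays limits the precision, and no test was run, since a single group was described. Columns were matched to samples by name, and 0 columns were left over.

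Members and lists were chosen with earlier results of these data known. Named miRNAs follow a rule: the 20 highest shares, the 10 largest and 10 smallest SDs, the 5 lowest shares, arm pairs within 2-fold or with a brighter asterisk arm, the leaders of 10 seed families, and all members of the cell type lists. The Dlk1-Dio3 list was added later. Sequences were matched by name in RefSeq (GRCr8), older names being taken to their arm by a hand-written table. Alternatives were other detection rules, sums, scalings, background subtraction, the authors' values and leaving out each array. The functions were tested on simulated arrays. Python 3.11.15, numpy 2.4.6, pandas 2.3.3, scipy 1.17.1 and matplotlib 3.10.9 were used.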

Additional observations from a re-analysis of the deposited data

Results flagged for a closer look

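An array stood apart from the other 3, by a gap large against the whole range, in 8 of 97 values checked. Chance gives about 1 in 20, and the 97 values share arrays and miRNAs. Replicate 2 was the array in 5 of the 8. Its share of miR-143 was 3.21% against 0.534% to 0.889% on the others. Its summed share of the stromal and smooth muscle list, mostly miR-143 and so not a separate value, was 3.68% against 0.842% to 1.27%. Its share of miR-142-3p was 0.188% against 0.1002% to 0.112%, and that of miR-466b was 0.0418% against 0.0156% to 0.0166%. MiR-340-5p was low on replicate 2, at 0.0912% against 0.120% to 0.122%, and miR-340-3p was high on replicate 4, at 0.0664% against 0.0545% to 0.0565%. On replicate 1, miR-182 was high at 0.0116% against 0.00697% to 0.00754%, and 182 miRNAs were called present against 170 to 172.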

How the results depend on the processing

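Of 320 values recomputed for 48 results, 307 stayed within 1 SD of the arrays or, for counts and SDs, within 1.5 times, 13 moved and 0 changed sign. Leaving out 1 array gave 189 of the 307 and 3 of the 13. Leaving out 1 of 4 arrays cannot move a mean by 1 SD. For shares and log2 ratios that outcome was therefore fixed in advance and says nothing on their stability. The number of members was 167 with presence on at least 3 of 4 arrays and 131 when signals also had to exceed the highest negative control. Without scaling, the median SD was 0.31 and 30 members had a range over 2-fold, against 0.17 and 18. Among members at or above the median share, 3 had such a range. Over all members, leaving out 1 array gave 7 (without replicate 2) to 18 with such a range. This count could only fall or stay, since leaving out an array cannot widen a range. Completing families by name brought the 10 families to 74.7%. On the authors' values let-7e came to 2.18%, miR-29c to 2.17%, miR-27b to 2.07% and its family to 2.56%. Leaving out 1 array kept miR-7a between 10.05% and 10.6%, miR-375 between 4.803% and 5.28% and the let-7 family between 21.3% and 21.6%. Without replicate 2, and likewise without replicate 3, 2 arm pairs were under 2-fold against 3. No paired analysis was possible because 1 group was described and no test was run. Dim members near the negative controls limit ranks and ratios at the low end.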

Other observations

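Of the 132 members with a matched sequence, 78 (59.1%) begin with U, 26 with A, 22 with C and 6 with G. Of the 20 brightest matched members 17 begin with U and the other 3 with A. Mature lengths ran from 19 to 25 bases with a median of 22. In the 33 brightest matched members the median G and C content was 42.9%, and in the 33 dimmest it was 47.6%. By RefSeq position, chromosome 6 carried 23 of the matched members, chromosome 10 carried 17 and chromosome 1 carried 14, and 13 members have 2 loci each. On these values no test was run.

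Some miRNAs outside the repertoire were as bright as its dimmest members without being called present on any control array. MiR-483, encoded in an intron of Igf2, had signals of 12.2, 21.2, 16.6 and 18.2 on replicates 1 to 4 and was present on none, whereas miR-874 had 4.09, 20.9, 16.1 and 6.40 and was present on all. Both are given after their values were seen.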
